A study of Mus musculus with 11 samples.

Results

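The KLF and Sp genes described here are Klf3, Klf4, Klf5, Klf6, Klf7, Klf12, Sp1, Sp2, Sp3 and Sp4, 10 of the 24143 genes in the count table, measured in a mouse cell line in which a further family member, Klf9, can be switched on. They were taken by gene symbol, with earlier results of these data known, and with 1 transcript row per gene. Of the 10, 9 passed the filter on low counts and were tested, and Klf12 did not. The KLF and Sp proteins bind DNA through tandem zinc fingers of the C2H2 type at the carboxyl end, and most recognise GC-rich boxes and the related CACCC box. Because the fingers are so alike, several family members can bind the same promoter, and the parts outside the fingers decide whether a bound factor recruits coactivators or corepressors. In neurons the family is known from rodent work on neurite and axon growth, in which Klf7 promotes growth and Klf4 and Klf9 restrain it.

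HT22 is a mouse hippocampal line immortalized with SV40. The parent line was compared with HT22[TR/TO-Klf9], a derivative stably transfected with pCDNA6:TR, which carries the tetracycline repressor, and pCDNA4:TO-Klf9, which carries Klf9 behind a repressor-controlled promoter, and kept in zeocin and blasticidin. Cells of both lines, in medium with 10% serum, received doxycycline at 0.5 µg/ml or DMSO vehicle for 8 h, starting 24 h after plating. The 4 groups were parent with vehicle (3 libraries), parent with doxycycline (3), TR/TO-Klf9 with vehicle (2 used) and TR/TO-Klf9 with doxycycline (1 used). The labels do not say whether the derivative is 1 clone or a pool, so that clone, transfection and antibiotics cannot be told apart from the line. Nothing in the labels says that replicates came from separate cultures, and the p-values cover only the spread seen among libraries, which may be technical.

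The 11 labelled samples gave 9 usable libraries, because the third vehicle and the first doxycycline column of TR/TO-Klf9 were the same in all 33815 rows, and which label is right is unknown. Both were left out, so the doxycycline group of that line is TR/TO-Klf9 doxycycline 2 alone, which has no replicate and is assumed to vary like the other groups. Total counts over the 1 row kept per gene ranged from 10302431 to 18902784 in the 9 libraries. Values are given in CPM, counts scaled to library size after TMM normalization, which corrects for composition. The vehicle libraries of TR/TO-Klf9 had a larger SD than either parent group for Klf3, Klf4, Klf5, Sp1 and Sp4. For Sp1 it was 32.7 CPM, against 4.8 with vehicle and 5.5 with doxycycline in the parent. The SD was not larger than in both parent groups for Klf6, Klf7, Sp2 and Sp3. For the former genes the SE and adjusted p in TR/TO-Klf9 may be too small. Klf9 itself, the gene that the line is built to induce, stood at 36.1 to 41.4 CPM in the 6 parent libraries, at 44.1 and 48.7 in TR/TO-Klf9 with vehicle and at 101 with doxycycline. The library deposited under both labels held 45.9 CPM of Klf9, between the vehicle libraries. Summed markers of hippocampal neurons reached 0.223 to 1.68 CPM, with Neurod6 at 0, against 3980 to 5220 CPM for a list of fibroblast markers. A general neuron list summed to 174 to 197 CPM, most of it Syn1 at 140 to 183 CPM, with Tubb3 at 10.7 to 35.3. On the same list Rbfox3, Map2, Elavl4, Dcx, Nefl and Nefm reached at most 0.31 CPM in any library and were not tested. Of 7 marker lists the microglia list separated the lines most, at 1.58 to 2.70 CPM in the parent and 12.6 to 14.6 in TR/TO-Klf9. Most of it was Csf1r, while Aif1 reached at most 0.86 CPM and Cx3cr1, P2ry12 and Itgam at most 0.31. Csf1r and Aif1 were higher in TR/TO-Klf9 with vehicle (adjusted p under 0.05, edgeR), as were 18.8% of all tested genes. How this list bears on the results for the KLF and Sp genes was not tested. In RNA from whole cultures, fewer cells of a kind and less RNA per cell cannot be told apart.

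Upstream windows of 4 of the genes are shown as examples, with the boxes that the family binds. They are those of Klf7, Sp1 and Klf3, whose counts fell with doxycycline in TR/TO-Klf9, and Klf6, whose change did not pass the test. Each runs over the 250 bases before the RefSeq transcript start of build GRCm38.p6, 5′ to 3′ on the gene's strand, with GC boxes (GGGCGG or CCGCCC) and CACCC boxes (CACCC or GGGTG) in capitals. The windows are chr1:64121390-64121639 on the minus strand for Klf7, chr15:102406066-102406315 on the plus strand for Sp1, chr5:64803271-64803520 on the plus strand for Klf3 and chr13:5861239-5861488 on the plus strand for Klf6.
Klf7: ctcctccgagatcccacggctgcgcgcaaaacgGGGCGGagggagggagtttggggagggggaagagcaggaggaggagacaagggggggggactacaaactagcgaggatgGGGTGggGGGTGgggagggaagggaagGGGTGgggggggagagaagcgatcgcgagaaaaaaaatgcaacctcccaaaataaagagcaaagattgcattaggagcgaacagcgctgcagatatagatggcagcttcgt
Sp1: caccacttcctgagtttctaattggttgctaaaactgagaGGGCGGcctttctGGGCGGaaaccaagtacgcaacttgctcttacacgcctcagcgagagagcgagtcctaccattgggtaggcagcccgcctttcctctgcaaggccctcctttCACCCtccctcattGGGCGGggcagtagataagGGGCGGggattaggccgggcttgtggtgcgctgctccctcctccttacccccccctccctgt
Klf3: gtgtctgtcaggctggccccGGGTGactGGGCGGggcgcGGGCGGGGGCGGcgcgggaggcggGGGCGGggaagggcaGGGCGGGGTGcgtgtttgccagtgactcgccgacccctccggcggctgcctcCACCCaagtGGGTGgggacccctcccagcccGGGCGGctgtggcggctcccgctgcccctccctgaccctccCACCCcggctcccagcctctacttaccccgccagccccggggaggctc
Klf6: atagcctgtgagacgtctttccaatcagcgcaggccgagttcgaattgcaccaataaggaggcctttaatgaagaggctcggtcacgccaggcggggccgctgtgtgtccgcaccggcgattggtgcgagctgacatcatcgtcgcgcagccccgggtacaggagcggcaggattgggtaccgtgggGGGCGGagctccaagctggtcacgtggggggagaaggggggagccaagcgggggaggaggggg

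The Klf7 window held 1 GC box and 3 CACCC boxes, the Sp1 window 4 and 1, the Klf3 window 6 and 5, and the Klf6 window 1 and 0. Capitals can run together in the Klf3 window, where 1 GC box shares its last base with a CACCC box read on the other strand. The CCAAT box (CCAAT or ATTGG), the site of the NF-Y complex, is not marked, though 1 in the Sp1 window shares bases with a GC box in capitals, and it occurred 4 times in the Klf6 window, 3 times in the Sp1 window and 0 times in the other two. The table of RefSeq windows matched 9 of the 10 genes, all but Klf5, with 12 windows because Sp2 and Sp3 have several starts. Of these 12, 9 held a GC box, 7 a CACCC box and 5 a CCAAT box. Among all 32841 windows of this length the shares were 32.7%, 52.0% and 33.9%, and their median GC content was 52.4%. The shares were not compared at equal GC content, and the 12 windows hold 3 of Sp2 and 2 of Sp3. Several windows not shown held boxes as well. In GC and CACCC boxes, Klf4 held 4 and 0, Sp4 4 and 2, and Klf12 0 and 1. The Sp3 windows held 5 and 0, and 2 and 0. Those of Sp2 held 0 and 0, 1 and 1, and 0 and 3. The changes of Klf4, Sp2, Sp3 and Sp4 with doxycycline in TR/TO-Klf9 did not pass the test. A link between boxes and changes was not tested. GC content was 59.2% for Klf7, 59.6% for Sp1, 78.4% for Klf3 and 64.8% for Klf6, so the genes that fell include both the most and the least GC-rich of these 4 windows. Letters in a window are a description and not a site of binding.

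Among the 10 genes the broadly expressed Klf6, Sp1 and Sp3 stood at the highest levels. Levels between genes were compared as CPM per kilobase of transcript, over these genes and Klf9, so the order says nothing of other family members. In parent cells with vehicle Klf6, a tumour suppressor and immediate-early activator, was the highest of these at 45.8 ± 1.8 (SD, n = 3). Sp1, the founding GC-box activator, followed at 41.4 ± 0.61, and Sp3, which shares its sites and can activate or repress, at 36.3 ± 0.97. Sp2, a divergent member that acts with NF-Y, stood at 26.6 ± 1.6 and Klf4, a pluripotency factor and cell cycle inhibitor, at 25.0 ± 1.1; the libraries of these neighbours overlapped. Klf3, a repressor that recruits the CtBP corepressors, stood at 17.2 ± 0.14, Klf9 at 8.59 ± 0.60 and Klf5, a factor that promotes proliferation, at 4.52 ± 0.31. Klf7, the close relative of Klf6 with a role in neuronal development, at 2.44 ± 0.086, and Sp4, a glutamine-rich activator abundant in neurons, at 2.16 ± 0.17, overlapped with each other. Sp4 is listed under transcripts of 2677 and 5694 nt with the same counts, and with the shorter length its level would be 4.6.

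Klf12 (NM_010636, chromosome 14), which like Klf3 recruits CtBP, was at 0 counts in 6 libraries and at 1 count in the other 3. A count of 0 allows up to 3 counts per library, or 0.159 to 0.291 CPM, covering counting error only, and no change of Klf12 was detectable at this depth.

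**Figure D1:**
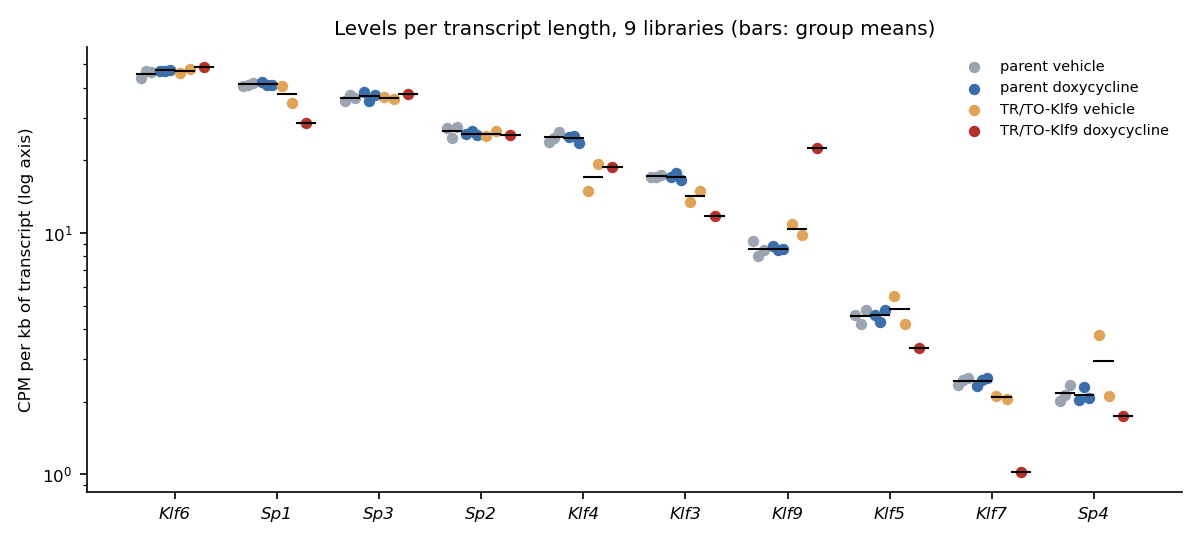
Levels of the KLF and Sp genes in CPM per kilobase of transcript (log axis), by group; points are libraries and bars are group means. Klf6, Sp1 and Sp3 lie at the top and Klf7 and Sp4 at the bottom in all 4 groups, and Klf9 lies below Klf4 and Klf3 in both parent groups and above them in TR/TO-Klf9 with doxycycline. Klf9 is scaled by the length of its listed transcript in every group.

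The order was the same in parent cells with doxycycline, where the group means of the 9 tested genes lay between 2.13 (Sp4) and 47.3 (Klf6) CPM per kilobase. In TR/TO-Klf9 with vehicle Klf6 led at 47.0 ± 1.2 (SD, n = 2), Sp1 at 37.6 ± 4.2 overlapped with Sp3 at 36.2 ± 0.60, and Klf4 at 17.1 ± 3.2 overlapped with Klf3 at 14.2 ± 0.99. Klf9 was at 10.3 ± 0.73 there, behind all of these. In TR/TO-Klf9 doxycycline 2 Sp3 at 37.9 stood above Sp1 at 28.7, and Klf9 at 22.6 stood above Klf4 at 18.8 and Klf3 at 11.8. Klf9 was scaled by 4486 nt, the length of its listed transcript. The length transcribed from pCDNA4:TO-Klf9 was not known here, so the place of Klf9 in this order is uncertain. The 10 genes together summed to 201 ± 4.1 CPM per kilobase in the parent with vehicle, 203 ± 1.8 with doxycycline, 188 ± 1.0 in TR/TO-Klf9 with vehicle and 178 with doxycycline. Sp1 made up 20.5% ± 0.13 of that sum in the parent with vehicle, 21.5% and 18.5% in the TR/TO-Klf9 vehicle libraries and 16.2% with doxycycline. The share of Klf7 was 1.21% ± 0.021 and 1.11% ± 0.013 with vehicle in the parent and TR/TO-Klf9 and 0.575% with doxycycline in TR/TO-Klf9.

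With doxycycline in TR/TO-Klf9 cells Klf7, Sp1, Klf5 and Klf3 fell, and none of the 9 tested genes rose. Klf7 fell most, 2.04-fold, and Sp1 fell 1.31-fold. Sp4 was lower without passing the test, and Klf4, Klf6, Sp2 and Sp3 did not pass it either. Changes were tested with edgeR's quasi-likelihood test on the 9 libraries with Benjamini-Hochberg adjustment over all 13536 tested genes, and a gene was called at an adjusted p under 0.05. The 4 calls among 9 genes, all lower, stand against a background of 17.8% of all tested genes called in this comparison. Of all tested genes 11.4% were called lower and 6.44% higher. The median log2 change of the 9 genes was -0.26, against -0.01 for all tested genes. Without parent vehicle 3, or without any one of the parent doxycycline libraries, 2 of the 9 were called, Klf7 and Sp1. With the library of both labels counted as doxycycline, 0 of the 9 and 0 of all genes were called with edgeR, and 4 and 2044 had an unadjusted p under 0.05; fitted on the 3 TR/TO-Klf9 libraries alone, 0 of the 9 and 73 of all genes were called, with 3 of the 9 at an unadjusted p under 0.05.

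Klf7 (NM_033563, chromosome 1) was at 17.91, 18.91 and 19.15 CPM in the parent with vehicle and at 17.87, 18.95 and 19.13 with doxycycline. In TR/TO-Klf9 it was at 16.18 and 15.75 CPM with vehicle and at 7.81 with doxycycline. The doxycycline library was far below every other, and the vehicle libraries of the line were below all 6 parent libraries. In counts, the doxycycline library held 102 reads against 207 and 212 with vehicle. The log2 change with doxycycline in TR/TO-Klf9 was -1.03 ± 0.14 (SE; adjusted p = 0.000177, edgeR). It was -1.01 without TR/TO-Klf9 vehicle 1 and -1.03 without TR/TO-Klf9 vehicle 2, and the doxycycline library could not be left out. The change is set by the group means of TR/TO-Klf9, so leaving out a parent library hardly tests it. Klf7 was called in 18 of 22 alternative settings, which include leaving out each of the 6 parent libraries. The library with both labels held 15.12 CPM, near the vehicle libraries, and with it counted as doxycycline the change was -0.48 (adjusted p = 0.273). With that library counted as vehicle the change was -0.99.

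Sp1 (NM_013672, chromosome 15) was at 316.2, 320.4 and 325.7 CPM in the parent with vehicle and at 328.9, 318.5 and 320.4 with doxycycline. In TR/TO-Klf9 it was at 314.5 and 268.3 CPM with vehicle and at 222.8 with doxycycline. The doxycycline library was the lowest of the 9, but the vehicle libraries of the line differed from each other by 0.23 on the log2 scale, close to the 0.27 between the nearer of them and doxycycline. The log2 change was -0.39 ± 0.09 (SE; adjusted p = 0.00743, edgeR). Against TR/TO-Klf9 vehicle 2 alone it was -0.27 (adjusted p = 0.018) and against TR/TO-Klf9 vehicle 1 alone -0.48. Sp1 was called in 17 of 22 alternative settings.

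Klf3 (NM_008453, chromosome 5) was at 89.3, 89.3 and 90.6 CPM in the parent with vehicle, at 89.3, 92.2 and 86.7 with doxycycline, at 70.3 and 77.6 in TR/TO-Klf9 with vehicle and at 61.8 with doxycycline. All 3 TR/TO-Klf9 libraries were below all 6 parent libraries, and doxycycline was lowest. The log2 change with doxycycline in that line was -0.26 ± 0.08 (SE; adjusted p = 0.0298, edgeR). It was -0.17 (adjusted p = 0.0935) without TR/TO-Klf9 vehicle 2, and the adjusted p was 0.0638 to 0.0693 without parent vehicle 3 or without any one of the parent doxycycline libraries, with a change of -0.24 in each of these fits. Klf3 was called in 10 of 22 alternative settings, and DESeq2 gave -0.25 (adjusted p = 0.127).

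Klf5 (NM_009769, chromosome 14) was at 15.32, 14.06 and 16.09 CPM in the parent with vehicle, at 15.34, 14.39 and 16.05 with doxycycline, at 18.44 and 14.04 in TR/TO-Klf9 with vehicle and at 11.19 with doxycycline. The vehicle libraries of the line lay at the highest and the second lowest level of the 9, with doxycycline below them. The log2 change was -0.54 ± 0.17 (SE; adjusted p = 0.0359, edgeR), and -0.33 (adjusted p = 0.152) without TR/TO-Klf9 vehicle 1. The adjusted p was 0.0595 to 0.064 without parent vehicle 3 or any one of the parent doxycycline libraries. Klf5 was called in 7 of 22 alternative settings, and neither DESeq2 (-0.53, adjusted p = 0.114) nor limma-voom (-0.52, adjusted p = 0.0501) called it.

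**Figure D2:**
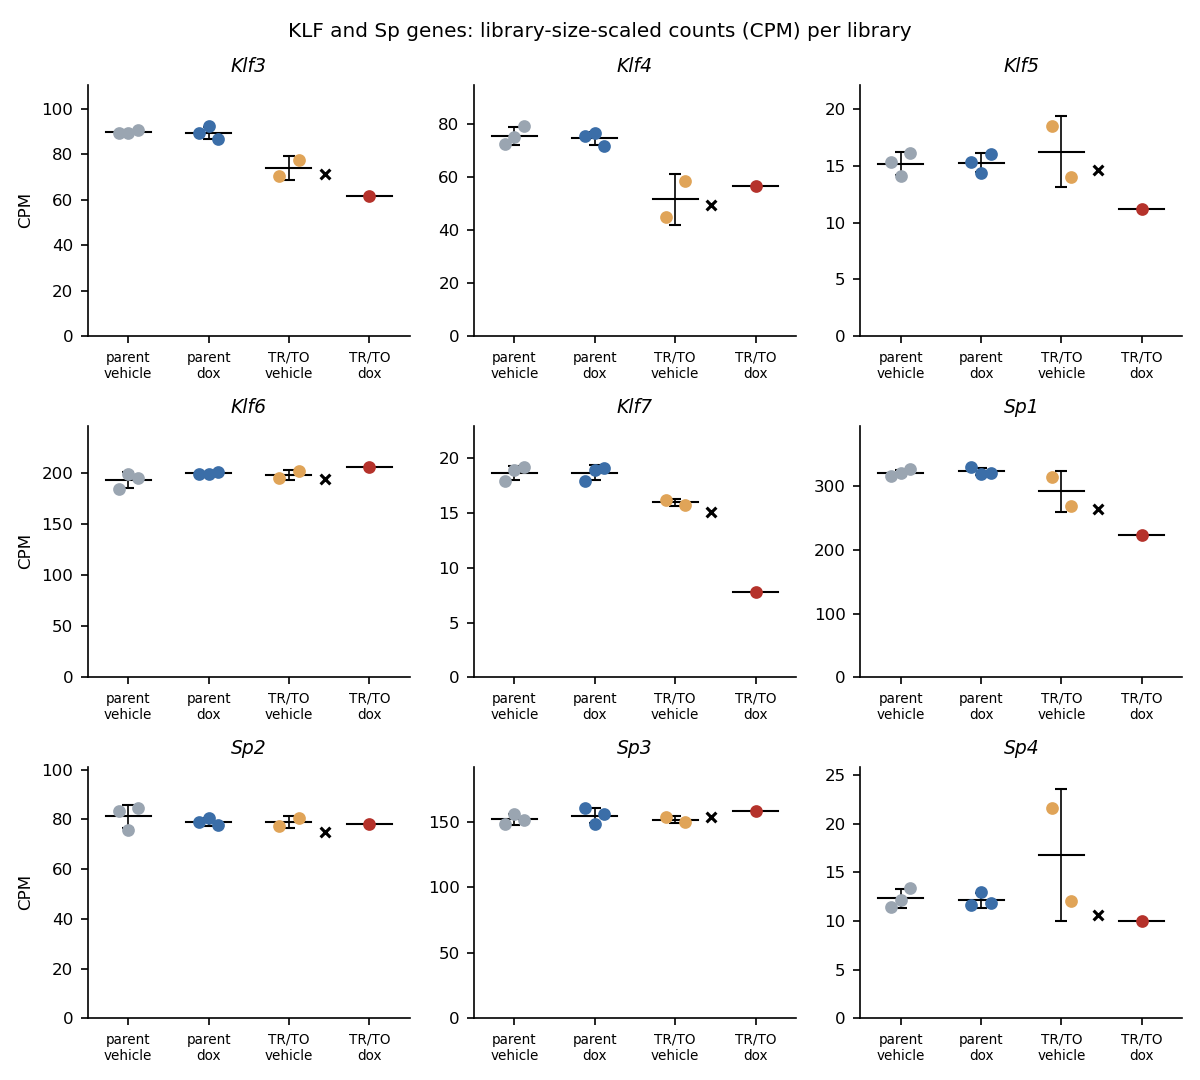
CPM of the 9 tested genes in each library, by group; lines are means, bars SD, and the cross is the library deposited under both TR/TO-Klf9 labels, which is in no group. Klf7 drops from 15.75 and 16.18 to 7.81 CPM with doxycycline in TR/TO-Klf9, Klf4 is lower in that line with or without doxycycline, and Sp4 differs most between its vehicle libraries.

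Sp4 (NM_001166385, chromosome 12) was at 11.42 to 13.36 CPM in the 6 parent libraries, at 21.57 and 12.03 in TR/TO-Klf9 with vehicle and at 9.96 with doxycycline. TR/TO-Klf9 vehicle 1 stood apart, since the other 8 libraries lay between 9.96 and 13.36. Its log2 change was -0.75 ± 0.27 (SE; adjusted p = 0.0764, edgeR), -0.27 (adjusted p = 0.279) without TR/TO-Klf9 vehicle 1 and -1.10 (adjusted p = 2.5e-05) without TR/TO-Klf9 vehicle 2. The vehicle libraries differed by 0.84 on the log2 scale for Sp4, and 0.589% of the 10865 genes with at least 5 CPM in them were as far apart. The median gap over those genes was 0.112. For Klf5, Klf4, Sp1 and Klf3 the gaps between vehicle 1 and vehicle 2 were 0.39, -0.38, 0.23 and -0.14, while Klf7, Sp3, Klf6 and Sp2 lay within 0.06 of each other.

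The remaining genes gave intervals around no change. The 95% interval of the fold with doxycycline in TR/TO-Klf9 was 0.939 to 1.14 for Klf6, 0.881 to 1.11 for Sp2 and 0.949 to 1.15 for Sp3. Klf6 (NM_011803, chromosome 13) was at 195.2 and 202.1 CPM with vehicle and 205.8 with doxycycline. Sp3 (NM_001018042, chromosome 2) was at 153.3 and 149.8 CPM with vehicle and 158.4 with doxycycline, and Sp2 (NM_001080964, chromosome 11) at 77.2 and 80.8 with vehicle and 78.0 with doxycycline. Klf6 and Sp3 were thus slightly above both vehicle libraries and Sp2 between them, with a log2 change of 0.05 ± 0.07 for Klf6, 0.06 ± 0.07 for Sp3 and -0.02 ± 0.08 for Sp2 (SE). Klf4 (NM_010637, chromosome 4), at 45.0 and 58.5 CPM with vehicle and 56.9 with doxycycline, had a fold of 1.10 with an interval of 0.926 to 1.30. Leaving out TR/TO-Klf9 vehicle 2 gave Klf4 a log2 change of 0.36 (adjusted p = 0.00441), and leaving out vehicle 1 gave -0.04.

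**Figure D3:**
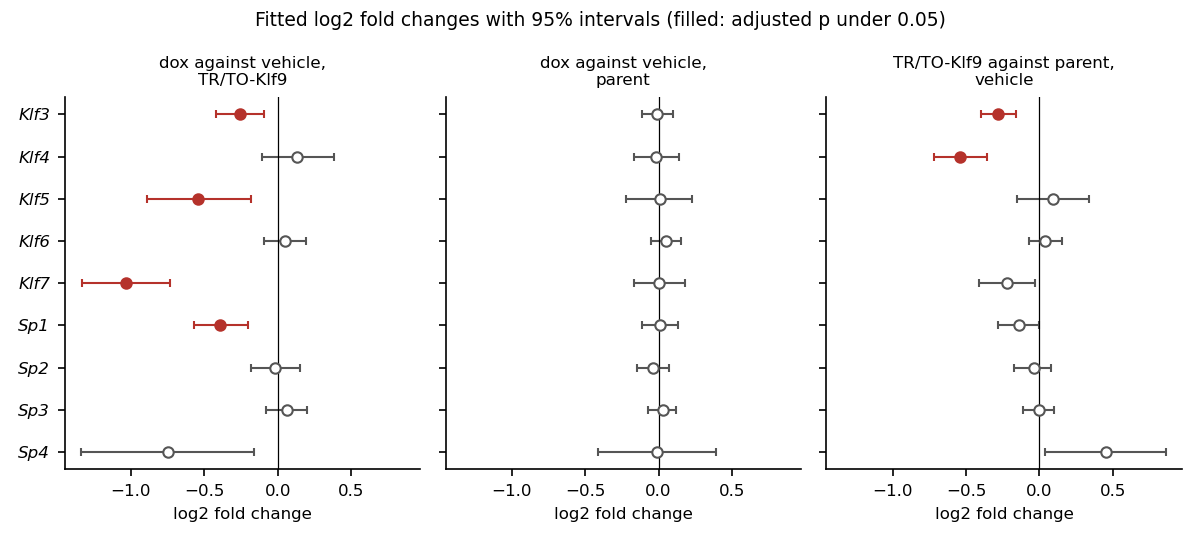
Fitted log2 change of the 9 tested genes in 3 comparisons (panels), with 95% intervals; filled points passed an adjusted p under 0.05. With doxycycline in TR/TO-Klf9 the points of Klf7, Sp1, Klf5 and Klf3 lie below 0, in the parent all lie between -0.04 and 0.05, and between the lines under vehicle Klf4 and Klf3 lie below 0.

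Groups that do not overlap are common where 1 library is set against 2. In this comparison 7 of the 9 genes did not overlap between groups, and so did 75.2% of all tested genes. Exons of Sp2 overlap those of the opposite-strand gene D030028A08Rik, and exons of Sp3 those of Sp3os, and whether strand was used in counting is not given in the sources used here. D030028A08Rik was at 72.3 to 81.6 CPM, or 94.2% to 97.9% of the Sp2 value in each library, and Sp3os at 12.8 to 21.9 CPM. Klf7 and Klf3 exons also overlap opposite-strand genes in the annotation that are not analysed here. Reads of these pairs cannot be told apart, so the values of Sp2 in particular may be shared.

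In parent cells doxycycline alone left 0 of the 9 genes called, with edgeR, DESeq2 and limma-voom, and 0 at an unadjusted p under 0.05 by each of them. The background was 0.0% of all tested genes called, and 293 genes, or 2.16%, had an unadjusted p under 0.05 with edgeR. Log2 changes of the 9 genes lay between -0.04 (Sp2) and 0.05 (Klf6), and parent vehicle and doxycycline libraries overlapped for each of them. Among all tested genes 9.72% did not overlap. The 95% interval of the fold was 0.891 to 1.13 for Klf7, 0.924 to 1.09 for Sp1, 0.926 to 1.07 for Klf3 and 0.857 to 1.18 for Klf5.

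The effects of doxycycline in the lines were then compared directly, as the effect in TR/TO-Klf9 minus that in the parent. Of the 9 genes 2 differed, both more negative in TR/TO-Klf9, against a background of 9.67% of all tested genes, 6.92% more negative and 2.75% more positive. The difference was -1.03 ± 0.17 for Klf7 (SE; adjusted p = 0.00114, edgeR) and -0.40 ± 0.11 for Sp1 (adjusted p = 0.0278). For Klf5 it was -0.54 ± 0.20 (adjusted p = 0.0969), for Klf3 -0.25 ± 0.09 (0.0929) and for Sp4 -0.74 ± 0.33 (0.182). The call for Sp1 was lost without parent vehicle 3 or any one of the parent doxycycline libraries (adjusted p = 0.0719 to 0.0935), which left 1 of the 9 genes. Without TR/TO-Klf9 vehicle 2 the differences of 5 genes were called, Klf7, Sp1, Klf5 at -0.71, Sp4 at -1.09 and Klf4 at 0.37, and without TR/TO-Klf9 vehicle 1 Klf3 at -0.32 joined Klf7 and Sp1.

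Long transcripts fell more often than short ones with doxycycline in TR/TO-Klf9. Among tested genes up to 2000 nt 3.35% were called lower, and the share was 7.19% from 2000 to 4000 nt, 17.4% from 4000 to 6000 nt and 40.0% above 6000 nt. The median log2 change was 0.10 in the shortest class and -0.26 in the longest. Sp1 at 7754 nt and Klf7 at 7662 nt belong to the longest class, Sp4 at 5694 nt and Klf3 at 5221 nt to the next, and Klf5 is 3352 nt. Sp4 is also listed at 2677 nt with the same counts, which would place it from 2000 to 4000 nt. Its value after the step below rests on 5694 nt. After a smooth trend of the change with transcript length was removed, Klf7 had a log2 change of -0.79 (adjusted p = 0.0027, edgeR) and was the 1 gene of the 9 called. Sp1 then stood at -0.15 (adjusted p = 0.357), Klf3 at -0.13 (0.272), Klf5 at -0.52 (0.0556) and Sp4 at -0.60 (0.217). The difference between the lines was -0.16 for Sp1 after the same step (adjusted p = 0.486).

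**Figure D4:**
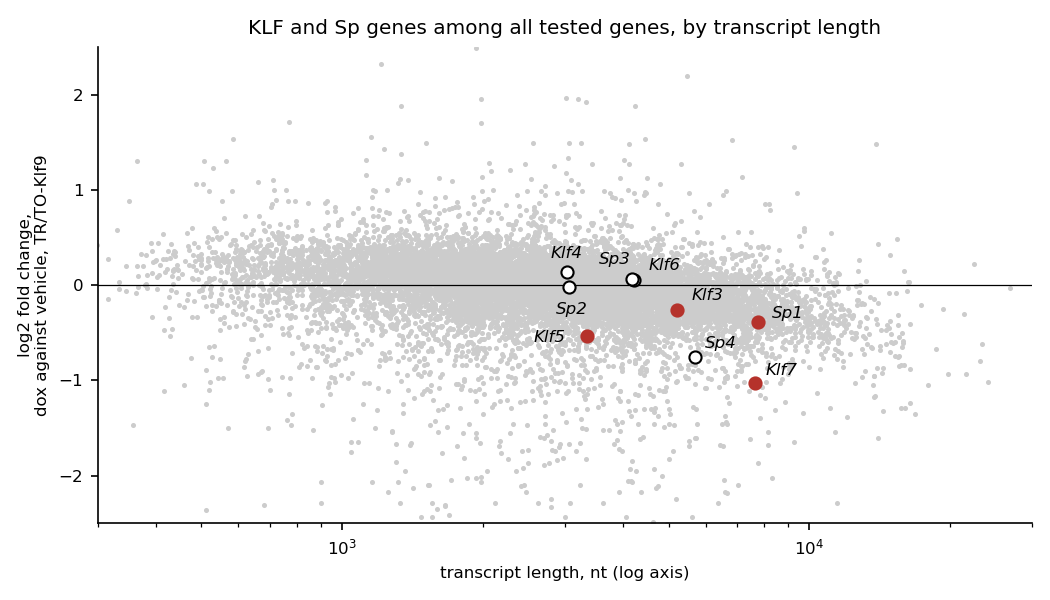
Log2 change with doxycycline in TR/TO-Klf9 against transcript length (log axis) for the tested genes with a known length (grey) and the 9 KLF and Sp genes (red where called, white where not); 265 of 13258 genes lie outside the axes. The grey cloud drops with length, Sp1 at -0.39 and Klf3 at -0.26 lie inside it at their lengths, and Klf7 at -1.03 lies at its lower edge.

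Between the lines under vehicle Klf4 and Klf3 were lower in TR/TO-Klf9, Klf4 1.46-fold and Klf3 1.21-fold. The 2 calls among 9 genes, both lower, stand against a background of 38.9% of all tested genes called, 20.1% lower and 18.8% higher. This comparison uses the same TR/TO-Klf9 vehicle libraries as the doxycycline comparison, so a vehicle library that is high or low moves both. Klf4 was at 72.5, 75.5 and 79.3 CPM in the parent with vehicle and at 45.0 and 58.5 in TR/TO-Klf9, a log2 difference of -0.54 ± 0.08 (SE; adjusted p = 0.000117, edgeR). No library of TR/TO-Klf9 reached the lowest of the parent. For Klf3 the difference was -0.28 ± 0.06 (adjusted p = 0.000817). Both were called in all 22 alternative settings, with log2 differences from -0.75 to -0.36 for Klf4 and from -0.36 to -0.21 for Klf3.

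The other genes did not pass this test. Klf7 stood at -0.22 ± 0.09 (SE; adjusted p = 0.0655) and Sp1 at -0.14 ± 0.06 (0.102), and for both the vehicle libraries of the lines did not overlap. Non-overlap was found for 4 of the 9 genes, and for 55.2% of all tested genes. Sp4 stood at 0.45 ± 0.19 (adjusted p = 0.0786), and at 0.81 (adjusted p = 7.98e-06) without TR/TO-Klf9 vehicle 2. Folds of 1.07 for Klf5, 1.03 for Klf6, 0.970 for Sp2 and 0.999 for Sp3 had 95% intervals of 0.898 to 1.26, 0.956 to 1.11, 0.891 to 1.06 and 0.930 to 1.07.

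**Figure D5:**
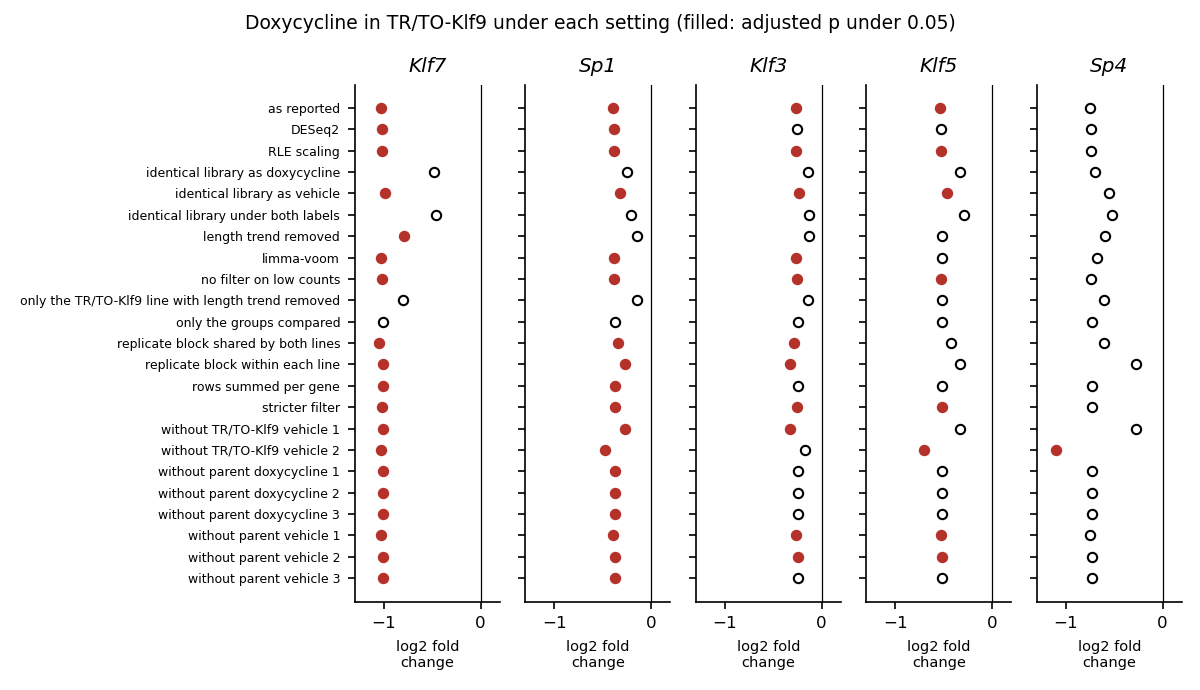
Log2 change with doxycycline in TR/TO-Klf9 for Klf7, Sp1, Klf3, Klf5 and Sp4 as reported and under each of 22 alternative settings (rows; filled where the adjusted p was under 0.05, open where not). Klf7 lies at -0.48 and -0.46 where the library of both labels enters as doxycycline and at -0.79 or below elsewhere, and Sp4 runs from -1.10 to -0.27 with the choice of vehicle library.

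The other 16 members of the family were followed for context, of which 7 were tested, and 6 had at most 3 counts in every library, with Klf14 and Sp5 at 0. With doxycycline in TR/TO-Klf9 1 of the 7 rose, Klf9 itself, and 3 fell, with a median log2 change of -0.61, where 6.44% of all tested genes rose and 11.4% fell with a median of -0.01. Klf13, a close relative of Klf9, fell by 1.07 on the log2 scale, from 49.3 ± 5.8 CPM (SD, n = 2) to 23.5. Klf16, a repressor of the same subgroup that recruits Sin3, fell by 0.71, from 61.6 ± 0.86 to 37.7, and Klf11 fell by 0.61, from 10.6 ± 0.64 to 6.97. After the length trend was removed Klf13 stood at -0.88 and Klf16 at -0.73, both still called, and Klf11 at -0.55 (adjusted p = 0.0632, edgeR). Between the lines under vehicle Klf10 was lower in TR/TO-Klf9 by a log2 difference of -0.32 and Klf9 higher by 0.26.

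A list of 23 cofactors and modifiers of KLF and Sp proteins, all tested, held 5 genes that fell and 0 that rose with doxycycline in TR/TO-Klf9, with a median of -0.12 (11.4% and 6.44% of all tested genes, median -0.01). The acetyltransferase Crebbp, a coactivator of several KLF proteins, went from 138 ± 4.7 CPM (SD, n = 2) to 93.6, a log2 change of -0.56 ± 0.07 (adjusted p = 3.86e-05, edgeR). Taf4, the TFIID subunit bound by Sp1, changed by -0.38 ± 0.08 (adjusted p = 0.00312). Hcfc1, at 8138 nt, changed by -0.33 ± 0.09, and by -0.08 (adjusted p = 0.633) after the length trend was removed, while Crebbp at -0.23 and Taf4 at -0.30 stayed called. Between the lines under vehicle 4 of the 23 cofactors were higher and 4 lower, a share near that of all tested genes, of which 38.9% were called. The smallest adjusted p was that of Wwp1, a ubiquitin ligase that acts on Klf5, at -0.96 ± 0.06 (adjusted p = 3.02e-09), from 84.2 ± 4.0 CPM in the parent to 43.4 ± 0.65.

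Of 26 genes reported to carry KLF or Sp sites 22 were tested. With doxycycline in TR/TO-Klf9 their median log2 change was -0.01, the same as that of all tested genes. In the parent 0 genes of the 3 lists were called with doxycycline by edgeR. Between the lines under vehicle 4 of the 22 were higher and 6 lower, against 18.8% and 20.1% of all tested genes. Among these Tgfbr1 differed by -0.49 and the cyclin gene Ccnd1 by -0.59, Maoa by 0.33, and Tert went from 3.83 ± 0.75 CPM in the parent (SD, n = 3) to 0.08 in each TR/TO-Klf9 vehicle library.

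The genes most like each changing member across the 9 libraries were found among 10298 candidates by the root mean square (RMS) difference of centred log2 values, computed with 0.5 CPM added. For Klf7, whose own values vary by an RMS of 0.373, they were Kmt2d and Mib1, both at 0.061. Kmt2d went from 366 ± 37 CPM (SD, n = 2) with vehicle to 192 with doxycycline in TR/TO-Klf9, and Mib1 from 92.7 ± 5.8 to 48.2. For Sp1, with an RMS of 0.175, they were Rc3h1 at 0.033 and Ewsr1 at 0.034, and for Klf3, with 0.189, Ptpn9 at 0.033 and Kif23 at 0.034. For Klf4, with 0.256, they were Nle1 at 0.047 and Hibadh at 0.048, and for Klf5, with 0.179, Hnrnpa3 at 0.041 and Zfc3h1 at 0.054. All points share 9 libraries, and no p is given.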

How the data were processed

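RNA of both HT22 lines was sequenced from oligo-dT libraries, per the labels' protocols. The values deposited are raw counts per RefSeq transcript, whole and unscaled as the numbers show. The submitters' processing notes name the build mm8 and the tools Bowtie, CASAVA, FastQC and DESeq. How reads were counted, whether strand was used, and how reads shared by several family members were treated is not given in the sources used here.

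Of 32923 accessions 32500 matched a symbol in a RefSeq table of build GRCm38.p6, used for names and chromosomes, with the upstream windows credited to RefSeq. The row with the highest mean was kept per gene, leaving 24143 genes. Sp2 and Sp4 have identical second rows, and the kept Sp3 row held 2.27% to 3.38% more counts than its other row. Samples were grouped by title. edgeR 4.0.16 in R 4.3.3 fitted 4 group means to 9 libraries (filterByExpr, TMM, quasi-likelihood F-test, 5 residual degrees of freedom, common dispersion 0.00229, a coefficient of variation of 4.78%) and tested 13536 genes. Each edgeR SE is the absolute log2 change divided by the square root of its F statistic. Intervals are 95% from these SE and the t distribution with the moderated degrees of freedom. These steps were tested on simulated counts with known changes. The simulated counts had 1 dispersion for all genes and groups and no length trend, so they do not show how well changes are found in these data. Alternatives were RLE scaling, limma-voom (limma 3.58.1), DESeq2 1.42.0, a filter of 1 CPM in 5 libraries or none, a replicate block, other uses of the identical library, only the groups compared, summed rows, each library left out, and a loess offset on transcript length (span 0.4), for which 97.9% of tested genes had a length. The fit on the TR/TO-Klf9 line with the length trend removed was added after seeing the data.

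The members, lists and tests were chosen with earlier results of these data known. Besides the 10 genes, the text names up to 4 genes per list with the smallest adjusted p among those called, the 2 genes most like each member called in any comparison, and every member. Some genes that this rule names are not reported here. Same-numbered vehicle and doxycycline libraries of the parent did not deviate together (correlations of 0.0053, 0.021 and -0.015), so the numbers were not used as pairs.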

Additional observations from a re-analysis of the deposited data

Results flagged for a closer look

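The effect of doxycycline on Klf7 and on Sp1 differed between the lines by a test of the difference itself, the interaction term of the edgeR fit. For Klf7 the effect in TR/TO-Klf9 minus that in the parent was -1.03 ± 0.17 on the log2 scale (SE; adjusted p = 0.00114), with 7.81 CPM in the doxycycline library of TR/TO-Klf9 and 15.75 to 19.15 CPM in the other 8. For Sp1 it was -0.40 ± 0.11 (adjusted p = 0.0278), with 222.8 CPM against 268.3 to 328.9. The Klf7 difference was called in 18 of 20 alternative settings and the Sp1 difference in 9 of 20, and with the length trend removed the Sp1 difference was -0.16 (adjusted p = 0.486). The doxycycline arm of TR/TO-Klf9 is 1 library. No group had the 4 samples needed to look for a library far from the others of its group.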

How the results depend on the processing

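All results on doxycycline in TR/TO-Klf9 rest on 1 doxycycline library, 2 vehicle libraries and the choice made for the library of both labels; none of the planned or added settings reversed a called value. Counts are those of edgeR at an adjusted p under 0.05 unless another tool is named, and the causes of the changes were not tested. For doxycycline in TR/TO-Klf9 2410 genes were called, 4 of them among the 9. DESeq2 called 1263 and 2, removal of the length trend left 1472 and 1, the groups compared alone 73 and 0, and the TR/TO-Klf9 line alone with the length trend removed 10 and 0 (1419 and 1 at an unadjusted p under 0.05). The library of both labels gave 0 and 0 as doxycycline (2044 and 4 unadjusted) and 0 and 0 under both labels (1480 and 2 unadjusted), and summing the rows of a gene left 2 of the 9. Leaving out 1 library gave 1890 to 3800 genes, the highest without TR/TO-Klf9 vehicle 2, and 2 to 5 of the 9.

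For the difference between the lines 1309 genes were called, 2 of them among the 9. DESeq2 called 672, removal of the length trend left 598 and 1, and the library of both labels gave 0 and 0 as doxycycline (1073 and 2 unadjusted), 0 and 0 under both labels (654 and 0 unadjusted) and 1 of the 9 as vehicle. Leaving out 1 library gave 571 to 2910 genes, the lowest without parent doxycycline 3 and the highest without TR/TO-Klf9 vehicle 2, and 1 to 5 of the 9. For the lines under vehicle 5264 genes were called (4187 to 6083 with 1 library left out), and 2 of the 9 (2 to 3), or 4 with the library of both labels as vehicle. In the parent every setting called 0 genes, including DESeq2 and limma-voom, with 39 and 305 at an unadjusted p under 0.05 by those tools.

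The replicate numbers share only a number. With a replicate block shared by both lines doxycycline in TR/TO-Klf9 gave 1381 genes and the difference 607 genes and 1 of the 9, and with a block within each line the vehicle comparison gave 4 of the 9. Over the 9 genes and these settings, 150 single values for doxycycline in TR/TO-Klf9 kept their direction and side of the threshold, 36 lost a call, 2 gained one and 10 uncalled values of Sp2 and Klf4 changed sign near 0. Without TR/TO-Klf9 doxycycline 2 no doxycycline comparison in that line could be made, and the difference could not be fitted on fewer groups. Depth limits Klf12, at most 1 count per library, and Klf7 and Sp4, at 102 and 130 counts in TR/TO-Klf9 doxycycline 2.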

Other observations

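The library deposited under both TR/TO-Klf9 labels belongs to no group, and its values for the 9 tested genes are given here apart from the groups. It lay inside the range of the TR/TO-Klf9 vehicle libraries for 4 genes, Klf3 at 71.3 CPM, Klf4 at 49.5, Klf5 at 14.6 and Sp3 at 153.2. It lay below that range for the other 5. Of these Klf7 at 15.1 CPM and Sp1 at 264.2 were close to the lower vehicle library, at 15.8 and 268.3, and far from the 7.81 and 222.8 of TR/TO-Klf9 doxycycline 2. Klf6 at 194.9 and Sp2 at 74.8 were also within a few CPM of the lower vehicle library, at 195.2 and 77.2. Sp4 at 10.6 CPM was closer to the doxycycline library at 9.96 than to the vehicle libraries at 12.03 and 21.57. Klf9 was at 45.9 CPM in it, against 101 in TR/TO-Klf9 doxycycline 2.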
